A study of Homo sapiens with 4 samples.

Results

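The cytosolic ribosomal protein genes were examined for ETS1 and RUNX1 at their ends in 6T-CEM, a line of human leukaemia cells of the T-cell lineage (T-cell acute lymphoblastic leukaemia, T-ALL). Members were chosen by symbol: protein-coding genes on chromosomes 1 to 22 and X whose name is RPL or RPS followed by a digit, with RPLP0, RPLP1, RPLP2 and RPSA, and without the S6 kinases and binding proteins that share the letters. This gave 88 of 19821 protein-coding genes, of which 55 code for proteins of the large (60S) subunit and 33 for proteins of the small (40S) subunit. The rule uses no measured value, though the set was chosen with earlier results of these data known.

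Ribosomal proteins are made in near-equal amounts and assemble with ribosomal RNA in the nucleolus into the subunits that translate mRNA. Their promoters are known for a polypyrimidine (TCT) start site that gives the mRNAs a 5′ terminal oligopyrimidine tract, through which growth signals control translation, and many hold a binding site of the ETS family. Loss or mutation of several of these genes occurs in T-ALL and in inherited or acquired anaemias. ETS1 is an ETS-family transcription factor of lymphoid cells that recognises GGAA. RUNX1, which pairs with CBFB, recognises some forms of TGNGGT and is a main regulator of blood cell development.

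Binding was mapped by CUT&Tag, in which an antibody brings a transposase to its target so that DNA around the bound site is cut and sequenced. An antibody to ETS1 was used for 2 libraries and an antibody to RUNX1 for 2 libraries, all from the same cell line with no treatment named. The labels do not say whether the libraries of an antibody came from separate cultures, so a spread over libraries may be technical. The ETS1 libraries held 6070 and 5611 peaks on the chromosomes used and the RUNX1 libraries 25356 and 24997, and total read numbers are not in the peak lists. Of 7 listed T-cell genes, ETS1 was at an end of 4 (57.1%, against 19% of all genes) and RUNX1 of 6 (85.7%, against 47.2%), and CD5 had neither. These counts describe binding at T-cell genes, not their expression or the identity of the line.

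A gene was counted as having a factor at an end when a region touched the 1 kb on either side of one of its outermost ends and held a peak of both libraries of that antibody. Values are the authors' fold over IgG, the antibody control, at the peak summit, and where a gene had several regions the one with the highest mean fold was used. A missing peak means that none was called at this depth, not that the factor was absent.

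Promoters are shown for 7 members that span the outcomes, as the 250 bases before and 50 from the start, in the direction of the gene, from RefSeq (GRCh38.p14). Capitals mark CCGGAA, a longer form of GGAA called the ETS core here, and TGNGGT, called the RUNX core here, on either strand. On the other strand they read TTCCGG and ACCNCA. N stands for any base. RPS16 had the highest RUNX1 fold of the 88 genes, and RPLP2 was the stalk protein gene with the highest ETS1 fold.
RPS16 (chr19:39435900-39436199, minus strand): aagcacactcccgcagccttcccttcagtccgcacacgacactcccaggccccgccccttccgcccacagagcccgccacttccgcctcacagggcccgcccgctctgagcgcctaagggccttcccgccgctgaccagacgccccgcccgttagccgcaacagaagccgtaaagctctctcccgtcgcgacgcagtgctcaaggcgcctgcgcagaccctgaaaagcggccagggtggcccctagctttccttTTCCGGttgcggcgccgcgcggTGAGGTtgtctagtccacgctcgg
RPLP2 (chr11:809717-810016, plus strand): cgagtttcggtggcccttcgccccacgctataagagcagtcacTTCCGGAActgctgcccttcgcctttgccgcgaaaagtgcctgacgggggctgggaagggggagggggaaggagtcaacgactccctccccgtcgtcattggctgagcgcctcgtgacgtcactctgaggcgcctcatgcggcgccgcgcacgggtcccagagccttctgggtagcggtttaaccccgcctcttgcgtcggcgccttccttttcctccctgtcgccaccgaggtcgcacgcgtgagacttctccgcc
RPS14 and RPS12 carried both factors and both sets of letters, at middling and at low fold. RPL41 carried both factors with neither set of letters in the window, though it holds the shorter GGAA.
RPS14 (chr5:150449690-150449989, minus strand): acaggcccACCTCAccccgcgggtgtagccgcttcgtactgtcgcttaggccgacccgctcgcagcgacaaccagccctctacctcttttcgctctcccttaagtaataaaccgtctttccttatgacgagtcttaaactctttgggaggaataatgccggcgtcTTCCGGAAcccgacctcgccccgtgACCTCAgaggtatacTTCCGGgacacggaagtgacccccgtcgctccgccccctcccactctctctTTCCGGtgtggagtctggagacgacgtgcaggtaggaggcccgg
RPS12 (chr6:132814319-132814618, plus strand): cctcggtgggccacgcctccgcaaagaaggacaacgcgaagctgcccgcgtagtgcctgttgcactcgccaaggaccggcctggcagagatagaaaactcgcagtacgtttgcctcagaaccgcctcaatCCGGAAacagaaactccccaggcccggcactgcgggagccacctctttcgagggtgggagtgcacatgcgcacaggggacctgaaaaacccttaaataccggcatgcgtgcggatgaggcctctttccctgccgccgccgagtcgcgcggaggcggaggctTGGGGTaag
RPL41 (chr12:56116383-56116682, plus strand): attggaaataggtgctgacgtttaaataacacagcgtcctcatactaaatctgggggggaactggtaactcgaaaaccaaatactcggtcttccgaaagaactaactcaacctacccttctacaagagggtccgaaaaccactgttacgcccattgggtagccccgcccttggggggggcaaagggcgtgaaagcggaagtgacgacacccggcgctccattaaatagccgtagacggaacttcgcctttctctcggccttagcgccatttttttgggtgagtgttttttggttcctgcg
RPL11 and RPS7 held the ETS core 2 times each, and neither factor had a region at either gene.
RPL11 (chr1:23691529-23691828, plus strand): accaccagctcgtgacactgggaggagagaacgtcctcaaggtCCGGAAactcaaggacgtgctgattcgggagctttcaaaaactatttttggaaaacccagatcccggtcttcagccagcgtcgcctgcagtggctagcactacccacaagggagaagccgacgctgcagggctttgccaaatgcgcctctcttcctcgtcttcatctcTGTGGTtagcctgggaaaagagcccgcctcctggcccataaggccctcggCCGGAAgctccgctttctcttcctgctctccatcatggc
RPS7 (chr2:3575010-3575309, plus strand): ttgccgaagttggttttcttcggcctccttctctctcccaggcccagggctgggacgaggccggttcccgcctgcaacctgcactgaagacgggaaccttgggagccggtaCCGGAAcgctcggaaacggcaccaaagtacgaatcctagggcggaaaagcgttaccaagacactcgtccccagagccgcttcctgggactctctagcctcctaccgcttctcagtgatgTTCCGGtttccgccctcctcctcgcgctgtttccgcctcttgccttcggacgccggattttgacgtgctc

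ETS1 lay at the ends of 39 of the 88 ribosomal protein genes (44.3%, 95% Wilson interval 34.4 to 54.7) and RUNX1 at 65 (73.9%, 63.8 to 81.9), against 18.9% and 47.0% of the other protein-coding genes. Over all genes tested, 19% had ETS1 and 47.2% had RUNX1 by the same rule. Both factors were found at 38 members (43.2%, against 18.7% of all genes), RUNX1 alone at 27 (28.5% of all genes), ETS1 alone at 1 (0.33% of all genes) and neither at 22 (25%, against 52.5% of all genes). The intervals cover counting error only, and neighbouring genes can share a region.

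Among the 65 members with RUNX1, 58.5% also had ETS1, against 39.6% of all genes with RUNX1. Of the genes used for comparison, the nuclear genes of the mitochondrial ribosome had ETS1 at 22 of 77 (28.6%, 19.7 to 39.5) and RUNX1 at 51 (66.2%, 55.1 to 75.8). Proteasome subunit genes, which are likewise expressed in all cells, had ETS1 at 11 of 40 (27.5%, 16.1 to 42.8) and RUNX1 at 25 (62.5%, 47.0 to 75.8). The intervals of the cytosolic ribosomal genes overlapped those of both other sets for each factor, and the differences between the sets were not tested.

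**Figure D1:**
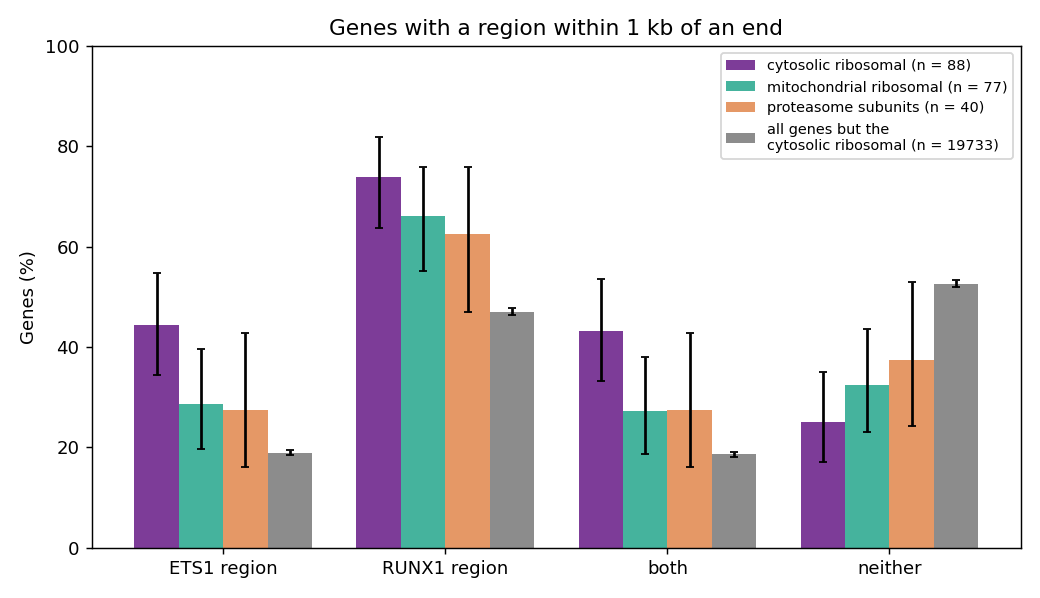
Share of genes (%) with an ETS1 region, a RUNX1 region, both or neither within 1 kb of an end, for cytosolic ribosomal protein genes, mitochondrial ribosomal protein genes, proteasome subunit genes and all genes but the cytosolic ribosomal ones; error bars are 95% Wilson intervals. The cytosolic ribosomal genes have the tallest bar for ETS1 (44.3%) and for both factors (43.2%) and the shortest for neither (25%).

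The subunits differed little in ETS1: 15 of 33 genes of the 40S subunit (45.5%, 29.8 to 62.0) and 24 of 55 of the 60S subunit (43.6%, 31.4 to 56.7). RUNX1 was at 27 of the 40S genes (81.8%, 65.6 to 91.4) and 38 of the 60S genes (69.1%, 56.0 to 79.7), with overlapping intervals. Neither factor was at 5 of the 40S (15.2%, 6.65 to 30.9) and 17 of the 60S genes (30.9%, 20.3 to 44.0). Over all genes, 19% had ETS1, 47.2% had RUNX1 and 52.5% had neither.

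Counted per library, 44 and 42 members had an ETS1 peak at an end (50% and 47.7%), and 66 had a RUNX1 peak in each RUNX1 library (75% each). Over all genes the same counts were 21.5% and 20.4% for ETS1 and 49.1% and 48.2% for RUNX1. On this measure both ETS1 libraries lay below both RUNX1 libraries. ETS1 averaged 48.9% ± 1.61 and RUNX1 75% ± 0 (SD, n = 2 each), a difference of -26.1 percentage points (exact permutation test over the 4 libraries, two-sided, p = 0.33, the smallest this design allows). When each library was cut to its 5611 strongest peaks, the length of the shortest list, the sign of this difference turned to +31.25 points: ETS1 was at 39 members (44.3%, against 18.5% of all genes) while RUNX1 was at 14 (15.9%, against 13.8% of all genes).

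At members with a region, the median fold over IgG was 6.61 for ETS1 and 9.05 for RUNX1, against 5.89 and 8.62 at the other genes with a region. Ranked by −log10 q within all peaks of a library, the median member stood at percentile 64.0 and 63.1 in the ETS1 libraries, against 63.0 and 60.4 for the other genes, and at 59.5 and 60.2 in the RUNX1 libraries, against 64.7 and 63.2.

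The folds rested on less signal over less control. The pileup at the summit had a median of 56.5 at members and 63.0 at other genes for ETS1, and 93.5 against 106.5 for RUNX1. The IgG expectation was 8.11 at members and 9.82 at other genes for ETS1, and 10.2 against 11.4 for RUNX1. A lower control moved with the slightly higher folds, and its part in them was not tested.

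**Figure D2:**
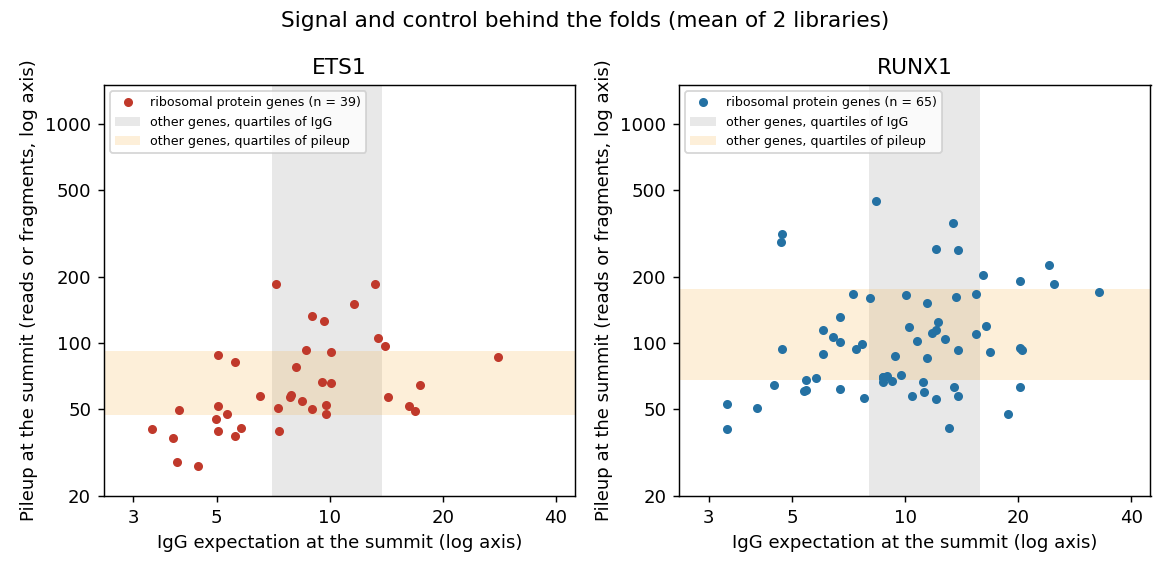
Pileup at the summit against the IgG expectation there (both log axes, means of 2 libraries) for ribosomal protein genes with an ETS1 region (left, n = 39) or a RUNX1 region (right, n = 65); shaded bands run from the lower to the upper quartile of the other genes. Most points lie near the bands, and RPS16 and RPS9 are the pair with RUNX1 pileups near 300 over an expectation below 5.

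The libraries of an antibody ordered the members in nearly the same way (Spearman's rho 0.918 over 39 members for ETS1 and 0.957 over 65 for RUNX1, as descriptions). ETS1 and RUNX1 folds were less alike across the 38 members with both (rho 0.453) and both come from the same cell line. At those 38 members the ETS1 libraries had a median fold of 6.96 and 6.74, and the RUNX1 libraries 11.2 and 11.2. On the log2 scale ETS1 averaged 2.78 ± 0.03, against 3.49 ± 0.003 with RUNX1 (SD, n = 2 each), a difference of -0.71 (exact permutation test over the 4 libraries, two-sided, p = 0.33, the smallest possible). The median ratio of ETS1 to RUNX1 fold was 0.672 at members and 0.483 at the other genes with both.

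**Figure D3:**
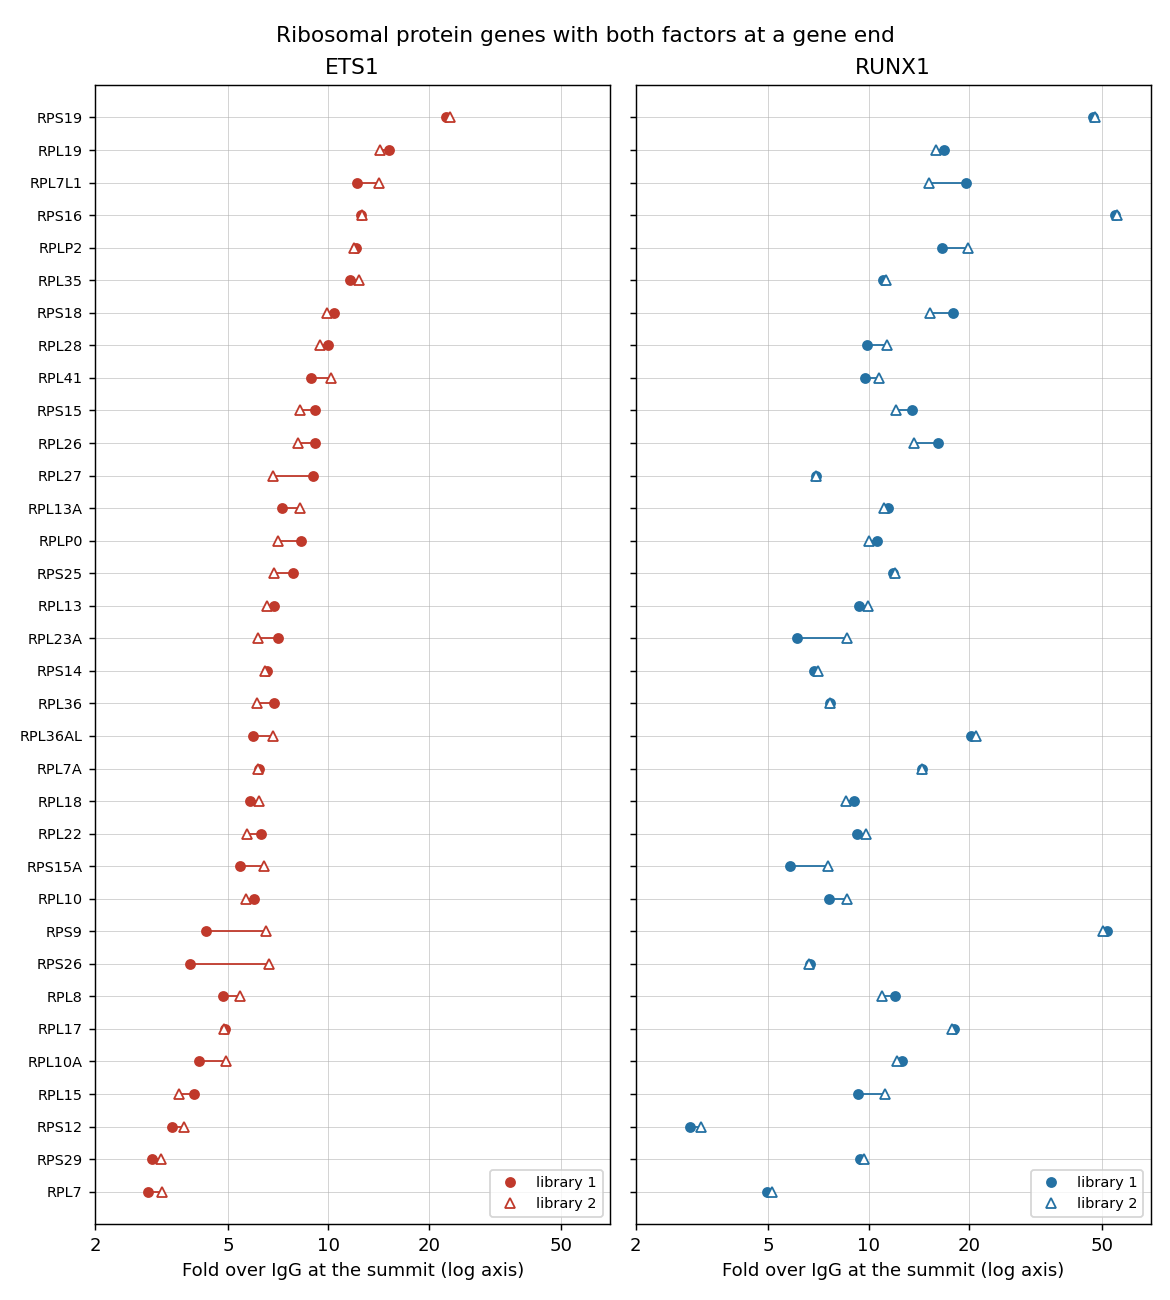
Fold over IgG at the summit (log axis) of the strongest ETS1 region (left) and RUNX1 region (right) for 34 of the 38 ribosomal protein genes with both factors, in library 1 (filled circles) and library 2 (open triangles), ordered by mean ETS1 fold. RPS19 leads ETS1 at 22.5 and 23.1, while RPS16, RPS9 and RPS19 stand apart for RUNX1 at 47.0 or more.

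Among single genes, RPS19, a 40S protein needed for ribosomal RNA maturation and a frequent target of mutation in Diamond-Blackfan anaemia, had the highest ETS1 fold. ETS1 folds were 22.5 and 23.1 and RUNX1 folds 47.0 and 47.8, with the ETS1 and RUNX1 summits 18 bp apart, 292 and 310 bp before the gene's start. A separate region near its far end, with summits 11632 and 11589 bp into the gene, gave 10.1 and 10.5 for ETS1 and 41.2 and 43.1 for RUNX1. Regions of both factors thus touched the 1 kb around both ends of RPS19. At the far end the summits lay 1038 bp (ETS1) and 1081 bp (RUNX1) from the gene end.

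RPL19, a 60S protein, followed with ETS1 folds of 15.2 and 14.3 and RUNX1 folds of 16.8 and 15.9, and its ETS1 and RUNX1 summits fell on the same base, 67 bp into the gene.

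RPL7L1, a paralog of RPL7 that acts in ribosome assembly, had ETS1 folds of 12.2 and 14.2 and RUNX1 folds of 19.6 and 15.1. Its strongest ETS1 summit was at the far end, beside the neighbouring gene PEX39, and the region at its own start gave ETS1 folds of 6.59 and 7.98. RPS16, a 40S protein whose tail reaches towards the tRNA in the peptidyl site, had ETS1 folds of 12.6 and 12.6 and RUNX1 folds of 54.8 and 55.5. In its promoter, printed above, the ETS core lies 5 bases after the start and the RUNX core 27 bases after it, while the ETS1 and RUNX1 summits were 67 and 132 bp before the start. In all, 8 members had a mean ETS1 fold over 10, RPLP2, RPL35 and RPS18 among them.

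For RUNX1, 6 members had a mean fold over 20, led by RPS16. RPS9, a 40S protein near the channel where mRNA enters, had RUNX1 folds of 51.7 and 50.6 and ETS1 folds of 4.31 and 6.48. That RUNX1 region was 5532 bp wide with its summit 3003 bp beyond the end of the gene, and the region at the start of RPS9 gave 5.12 and 5.17 for ETS1 and 9.62 and 7.82 for RUNX1. The high value therefore does not describe the promoter of RPS9.

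RPL36AL, a paralog of RPL36A, had ETS1 folds of 5.94 and 6.83 and RUNX1 folds of 20.2 and 20.9, with summits 12 bp apart. An end of MGAT2 lies within 1 kb of the end of RPL36AL that carries these regions.

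The usual order, RUNX1 above ETS1, was turned at 4 of the 38 members with both factors (10.5%), against 8.3% of all genes with both, a share near that background. Among them, RPL35, a 60S protein near the exit tunnel for the nascent chain, had 11.6 and 12.4 for ETS1 and 11.0 and 11.3 for RUNX1. RPS12, a 40S protein, had 3.40 and 3.69 for ETS1 and 2.91 and 3.15 for RUNX1.

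RPL27, a 60S protein, had ETS1 folds of 8.99 and 6.83 and RUNX1 folds of 6.93 and 6.93, so the libraries of both antibodies overlapped there. At RPL35 and RPS12 the libraries did not overlap. RPS27A, which is made as a fusion with ubiquitin, was the member with ETS1 and no RUNX1 region. Its ETS1 folds were 2.91 and 2.70, low in the ETS1 range, and RUNX1 had a peak in library 2 with a fold of 2.94 and none in library 1, so that its status turned on 1 library.

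Members with RUNX1 and no ETS1 region reached lower RUNX1 folds than the leading members with both. RPL3L, the muscle paralog of RPL3, had the highest with 12.8 and 13.5. That region lies outside the gene, with its summit 502 bp from the nearest end, and an end of MSRB1 lies within 1 kb of an end of RPL3L. RPL23, a 60S protein that can bind MDM2, had 12.6 and 11.9, and an ETS1 peak in library 2 alone with a fold of 5.26. RPS6, the substrate of the S6 kinases, had RUNX1 folds of 11.1 and 10.3.

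RPS2, a 40S protein, had RUNX1 folds of 10.3 and 8.87 and an ETS1 peak in library 1 alone with a fold of 5.65. RPS23, a 40S protein at the decoding centre, had RUNX1 folds of 9.18 and 9.0 with a pileup of 198 and 185 over an IgG expectation of 20.7 and 19.7. In all, 9 members had an ETS1 peak in 1 library and no ETS1 region, among them RPL3, RPL4, RPL6, RPLP1, RPS24 and RPS28. With a peak in either library as the rule, ETS1 was at 48 members (54.5%, against 23% of all genes).

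At the low end among members with both factors, RPS12 had the lowest RUNX1 fold. RPL7, a 60S protein, had ETS1 folds of 2.88 and 3.17 and RUNX1 folds of 4.96 and 5.14 over the highest control of all members with RUNX1, an IgG expectation of 34.5 and 31.3. Its pileup of 175 and 165 for RUNX1 was above the median of the members. RPS26, a 40S protein at the mRNA exit, had ETS1 folds of 3.84 and 6.66 and RUNX1 folds of 6.66 and 6.60. RPS15A, a 40S protein, had ETS1 folds of 5.42 and 6.42 and RUNX1 folds of 5.82 and 7.54.

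Library folds differed by more than 1.5 times at RPS26 and RPS9 for ETS1 and at RPL30 and RPS27L for RUNX1. RPL30 had RUNX1 folds of 2.62 and 7.10 with pileups of 54 and 60 over an IgG expectation of 20 and 7.59. RPS27L had 3.72 and 7.73 with pileups of 54 and 61 over 13.8 and 7.02. In both genes the pileups were alike and the expectation from IgG was not. The libraries placed the RUNX1 summits at different sites. They lay 132 and 671 bp outside RPL30, and 111 bp outside and 170 bp inside RPS27L. The expectations were thus read at different positions, and the part of this in the differing folds was not tested.

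The 22 members with neither factor were RPL5, RPL9, RPL11, RPL14, RPL24, RPL29, RPL31, RPL34, RPL35A, RPL36A, RPL37A, RPL38, RPL39, RPS3, RPS4X, RPS7, RPS20 and RPS27, the paralogs RPL10L and RPL26L1, and the readthrough loci RPL17-C18orf32 and RPL36A-HNRNPH2. They include RPL5 and RPL11, which form a complex with 5S ribosomal RNA that restrains MDM2. The nearest ETS1 summit lay beyond 10 kb of either end in 17 of the 22 (median distance 86.4 kb) and the nearest RUNX1 summit in 15 (median 26.8 kb). The same distances are not given here for other genes without a region, so nothing particular to these members can be read from them. RPL9 was the nearest miss, with a peak 234 bp from its end in 1 ETS1 library and 232 bp in 1 RUNX1 library. Among the 27 members with RUNX1 alone, the nearest ETS1 summit lay beyond 10 kb in 17.

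Genes tied to disease were split over the classes. Of 4 members altered in T-ALL, RPL10, whose product licenses the late 60S subunit, had ETS1 folds of 5.98 and 5.66 and RUNX1 folds of 7.60 and 8.61. RPL22, a 60S protein often deleted in this leukaemia, had ETS1 folds of 6.28 and 5.69 and RUNX1 folds of 9.22 and 9.82. RPL5 and RPL11 had neither factor.

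RPS14, the 40S gene lost in the 5q- syndrome, had ETS1 folds of 6.53 and 6.46 and RUNX1 folds of 6.84 and 7.02. Among members mutated in Diamond-Blackfan anaemia, RPS19 and RPS26 had both factors, RPS24 had RUNX1 with 4.33 and 4.54, and RPL5, RPL11 and RPL35A had neither. RPSA, a 40S protein also known as the laminin receptor, had RUNX1 alone at 5.27 and 5.06. Both the T-ALL genes and the anaemia genes included members with both factors and members with neither.

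Of the 8 paralogs, genes that copy another ribosomal protein gene, ETS1 was at 2, RPL7L1 and RPL36AL (25%, Wilson 95% interval 7.15 to 59.1%, against 19% of all genes), and RUNX1 at 6 (75%, against 47.2% of all genes). Besides those given, RPL22L1 had RUNX1 folds of 4.38 and 4.70, and RPL39L had 7.28 and 7.20. Of the 3 readthrough loci, RPS10-NUDT3 had a RUNX1 region, the one counted for RPS10. Small nucleolar RNA genes lie within 30 members, and their RNAs guide modification of ribosomal RNA. ETS1 was at 11 of these (36.7%) and RUNX1 at 25 (83.3%), against 28 (48.3%) and 40 (69.0%) of the 58 members that hold none. Both shares of either kind of member lay above the 19% and 47.2% of all genes.

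Chromosome 19 carried 12 members, RPL13A, RPL28, RPS9, RPS16 and RPS19 among them. Both factors were at 11 of them and RUNX1 alone at RPS28, so ETS1 was at 91.7% and RUNX1 at 100%, against 38.9% and 61.1% of all genes on that chromosome. The 76 members elsewhere had ETS1 at 28 (36.8%, against 17.5% of all genes off chromosome 19) and RUNX1 at 53 (69.7%, against 46.1%). RPS16, RPS9 and RPS19, with the highest RUNX1 folds, lie on chromosome 19. The median ETS1 fold was 7.88 at members on chromosome 19 and 6.44 at the others, and the median RUNX1 fold 12.3 and 8.45. Other genes with a region showed the same contrast, with 7.35 on and 5.66 off chromosome 19 for ETS1 and 12.02 and 8.31 for RUNX1. All 22 members without either factor lay off chromosome 19.

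The windows of 35 members hold an end of another protein-coding gene, RPLP2, RPL35, RPS18, RPS2 and RPS27A among them. ETS1 was at 17 of these (48.6%) and RUNX1 at 27 (77.1%), against 22 (41.5%) and 38 (71.7%) of the 53 members with no such neighbour. Of all genes, 19% had ETS1 and 47.2% had RUNX1. Which gene of a pair a region belongs to was not tested. The 39 members with ETS1 rested on 46 separate ETS1 regions of median width 654.5 bp, and the 65 with RUNX1 on 74 regions of median width 926.5 bp, since 7 and 10 members had a region at 2 places.

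For 70 of the 88 members a transcript start and direction were at hand. ETS1 touched the 1 kb around the 5′ end in 30 of these, against 19.2% of all genes with a start, and RUNX1 in 48, against 46.6%. A region at the 3′ end without one at the 5′ end was found for RPL17 with ETS1 and for 1 member with RUNX1. A region at the 3′ end, with or without one at the 5′ end, was found for 7 of the 31 members with ETS1 and a known direction (22.6%, against 13.7% of all such genes) and for 11 of the 49 with RUNX1 (22.4%, against 17%).

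The position of summits around the start was measured next. The strongest ETS1 summit within 1 kb of the 5′ end had a median position of -118.5 bp in 27 members (quartiles -252 and 69.5) and -57.8 bp in 2784 other genes. The RUNX1 summit had a median of -91.5 bp in 45 members and -4.5 bp in 6459 other genes. ETS1 summits lay downstream of the 5′ end in 37.0% of members and 42.5% of other genes, and RUNX1 summits in 35.6% and 49.1%. The ETS1 direction turned with the neighbouring gene ends: the median was -219.25 bp in 12 members with another gene end in the window (16.7% downstream) and 37 bp in 15 members without one (53.3% downstream). The RUNX1 median was -144 bp in 19 members with such an end (36.8% downstream) and -72.8 bp in 26 without (34.6% downstream). The part of neighbouring genes in the summit positions was not tested.

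**Figure D4:**
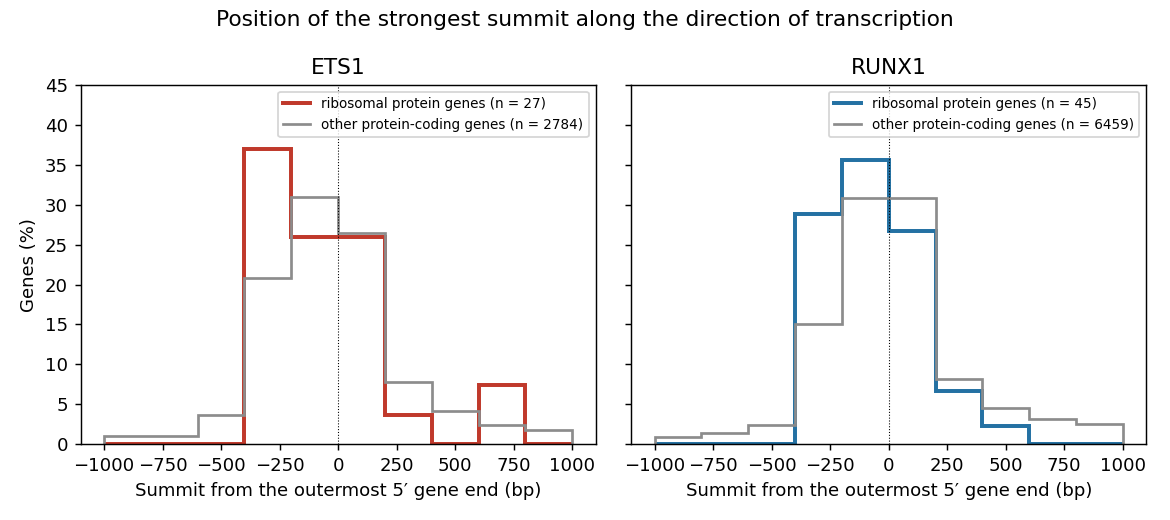
Distance of the strongest summit from the outermost 5′ gene end (bp, negative is upstream, bins of 200 bp) as the share of genes (%), for ETS1 (27 ribosomal protein genes and 2784 others) and RUNX1 (45 and 6459). In both panels the ribosomal protein genes hold a larger share than the others between 400 and 200 bp upstream, 37.0% of them for ETS1. In the 15 members with no other gene end in the window the ETS1 median was 37 bp downstream.

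ETS1 and RUNX1 summits were close to each other. At the 38 members with both, the strongest summits were 54 bp apart in the median, against 59.5 bp at other genes, and 28 of 38 lay within 100 bp (73.7%, against 65.6%). At RPL19, RPL28, RPL35 and RPL41 the summits coincided to within 1 bp. At RPL7L1 and RPS9 they were over 1 kb apart, and the strongest regions of the factors differed.

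The letters of the promoters differed from those of other genes. The ETS core CCGGAA was in 37 of 70 members (52.9%), against 22.7% of all 15812 promoters of the same length, and the RUNX core TGNGGT in 33 (47.1%), against 41.8%. Both together were in 20 (28.6%, against 9.47%). The pyrimidine runs CTTTCC or CTTTCT, forms of the TCT start site read in the direction of the gene, began within 20 bases of the start in 29 members (41.4%, against 3.77%). CTTTCC ends in TTCC, the reverse complement of the GGAA that ETS factors read, so it can overlap the ETS core, as in the RPS14 promoter above, where the letters begin 5 and 7 bases after the start.

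CTTTCC anywhere in the window was in 40% of members (14.4% of all promoters) and CTTTCT in 27.1% (11.4%). AAGATGGC, the core that the factor YY1 reads, was in 7 members (10%, against 3.86%), and TATAAA in 7 (10%, against 9.75%). The median GC content was 59.3% at members and 62.7% at other genes. The ETS core was in 64.0% of 40S and 46.7% of 60S promoters, and the RUNX core in 72.0% and 33.3%.

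Occupancy was then compared between promoters with and without the letters. ETS1 had a region at 16 of 37 members whose promoter held CCGGAA (43.2%) and at 15 of 33 without it (45.5%). RUNX1 had a region at 24 of 33 members with TGNGGT (72.7%) and at 25 of 37 without it (67.6%). By occupancy, the ETS core was in 15 of 30 members with both factors (50%), 11 of 19 with RUNX1 alone (57.9%) and 10 of 20 with neither (50%). At the other genes it was in 34.0% of promoters with both, 27.9% with RUNX1 alone and 14.8% with neither. The shares of members with and without a factor were thus close, while those of other genes ran downwards, and this difference was not tested.

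The TCT start letters were in 46.7% of members with both factors, 21.1% with RUNX1 alone and 55.0% with neither. Summits often lay outside the window searched: the nearest CCGGAA was 132 bp from the ETS1 summit in the median over the 14 members with both in reach, within 50 bp in 3, and the nearest TGNGGT was 76 bp from the RUNX1 summit over 19, within 50 bp in 7. Matches are letters only, and a promoter without them may hold a form of the site that was not searched. TGNGGT admits any base at N, so its matches can include forms that RUNX1 does not read. The forms were not counted apart.

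**Figure D5:**
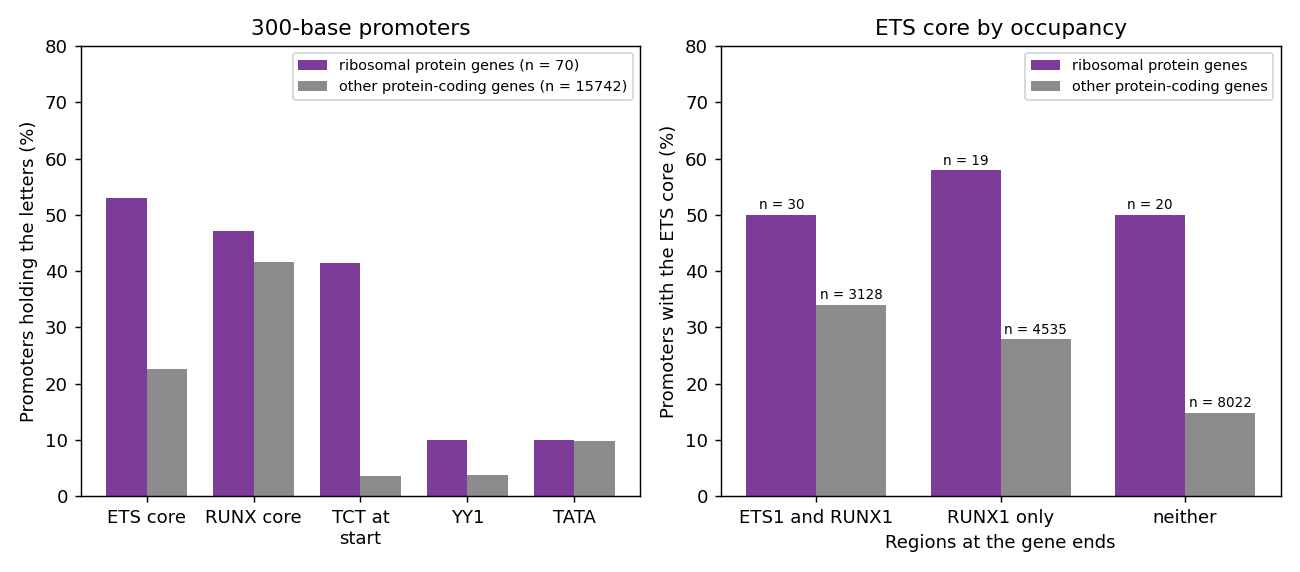
Left, share of 300-base promoters (%) holding the ETS core, the RUNX core, a TCT start within 20 bases of the start, the YY1 core or TATAAA, in ribosomal protein genes (n = 70) and other protein-coding genes (n = 15742). Right, share holding the ETS core by the regions at the gene ends; it is 50%, 57.9% and 50% at ribosomal protein genes and falls to 14.8% at other genes with neither factor.

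The printed promoters show the same mix. RPS14 holds the ETS core 4 times and the RUNX core 2 times with folds between 6.46 and 7.02. RPLP2 holds the ETS core as the palindrome TTCCGGAA, 25 bp from its ETS1 summit, with ETS1 folds of 12.1 and 11.9. That ETS1 region lies wholly before the start of RPLP2, and an end of PIDD1 lies within 1 kb of an end of RPLP2. RPL41, the smallest ribosomal protein, holds neither CCGGAA nor TGNGGT, but it does hold the shorter GGAA, as in gcggaagtg before its start. RPL41 had ETS1 folds of 8.87 and 10.2 and RUNX1 folds of 9.74 and 10.7. RPL11 and RPS7 hold the ETS core 2 times each and had neither factor.

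Other genes of the translation machinery were counted by lists. Of ribosomal proteins with other symbols, FAU had both factors and RACK1 had neither. Of 17 translation factors and other genes with a 5′ pyrimidine tract, 11 had ETS1 (64.7%) and 13 had RUNX1 (76.5%): BTF3 had ETS1 alone at 2.67 and 2.94, and EIF3E, EIF3F and EIF3H had neither. Of 20 ribosome biogenesis genes, 10 had ETS1 (50%) and 17 had RUNX1 (85%), against 19% and 47.2% of all genes. NOP56, a core protein of box C/D small nucleolar particles, had ETS1 folds of 15.7 and 15.9 and RUNX1 folds of 8.46 and 7.93, the reverse of the usual order.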

How the data were processed

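Binding of ETS1 and RUNX1 was measured by CUT&Tag in 4 libraries of 6T-CEM cells. Per the submitters' processing notes, the tools were MACS3 3.0.0a6, bcl2fastq 2.17 and Bowtie2 (no version given), with hg38. The authors deposited peaks per library with a fold over IgG (a ratio), −log10 p and −log10 q. The deposited score and the deposited summit offset were read as they stood. How duplicates and multiply mapped reads were filtered is not given in the sources used here. This decides how reads from the near-identical copies of ribosomal protein genes were placed.

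From these files, touching peaks of the libraries of an antibody were merged (Python 3.11.15, pandas 2.3.3, SciPy 1.17.1), and regions holding a peak of each were set against the RefSeq gene ends of GRCh38.p14, with 153 genes in scaffold coordinates left out. Summit pileup and IgG expectation were solved from fold and −log10 p for 100% of peaks. The misfit allowed was 0.01 in −log10 p, and more, in proportion to −log10 p, for the strongest peaks. This was tested on 3045 simulated peaks (100% recovered) and 200 planted gene statuses (100% recovered). The simulated peaks followed the same formula that was solved, and the planted peaks lay inside the window, so this checks the code only. Absolute depth is unknown; the median pileup per peak was 54 and 51 (ETS1) and 75 and 71 (RUNX1), which limits single weak folds. Starts and 300-base promoters came from RefSeq for 70 members. The other 18, not in that table, have no start position or letters here.

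Members, lists and named genes were chosen with earlier results of these data known. Genes named with values were the 5 highest for each factor, those with ETS1 above RUNX1 or alone, the 5 highest with RUNX1 alone, the 5 lowest with both, and the lists. A few genes that this rule or the plots would name are not reported here. RPL9, RPL30, RPL41, NOP56 and BTF3 and the other genes with differing libraries were named after their values were seen. The comparison of antibodies was a two-sided exact permutation test over the 4 libraries. Alternatives were other windows, stricter q, equal peak numbers, summit in the window, other member sets, either library, and each library left out; listed starts, leaving out chromosome 19 and crossed pairing were added after seeing the data.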

Additional observations from a re-analysis of the deposited data

How the results depend on the processing

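Cutting every library to 5611 peaks left ETS1 at 39 members, and gave RUNX1 at 14, both at 12 and neither at 47. The difference in percent of members, ETS1 minus RUNX1, then reversed to 31.25, and the median summit distance was 57.25 bp. RUNX1 lists were shortened most by construction. With −log10 q of at least 20, ETS1 was at 23 members (26.1%, against 10.8% of all genes), RUNX1 at 57 (64.8%, against 39%) and both at 22, with summits 23 bp apart. Summits were 62 bp apart with 2 kb windows and 46 bp apart with the summit required in the window, and the cause was not tested. Among the 53 members with no other gene end in the window, ETS1 was at 22, RUNX1 at 38 and both at 22, fewer because fewer genes were counted. Leaving out each library in turn gave summit distances of 48 to 57 bp, ETS1 at 39 to 44 members and RUNX1 at 65 to 66. Counts were taken as moved past 1.5 times and summit distances past the spread between libraries (SD 2.12 bp), while differences between antibodies were judged by direction alone. By these rules 14 values moved and 1 reversed. The log2 difference was -1.27 with equal peak numbers, against -0.71 as reported. The listed transcript starts left 67 of 70 statuses as they were. The replicate numbers were not taken to pair libraries, since their deviations correlated at -0.139 over the 38 members with both factors and there are 2 pairs only. With the replicate block the differences were -26.1 points and -0.71 on the log2 scale, each with an exact p = 0.5, the smallest that 2 pairs allow, and crossing the numbers gave the same p. Unknown depth limits which weak regions were called, so counts of members without a region are counts at this depth.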

Other observations

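Pseudogenes named for ribosomal proteins, most of them reinserted copies of the mRNAs without the promoter, were rarely near either factor. Of 1990, ETS1 was at an end of 4 (0.201%) and RUNX1 at 38 (1.91%), against 0.924% and 3.73% of 14279 other pseudogenes. Over 2 kb from any protein-coding gene end, ETS1 was at 2 of 1892 (0.106%) and RUNX1 at 28 (1.48%), against 0.485% and 2.58% of 13392 other pseudogenes. The ETS1 cases were RPL10P15, RPL35P10, RPS10P29 and RPSAP49, all of which also had RUNX1. RPSAP49 had ETS1 folds of 10.2 and 9.17 and RUNX1 folds of 20.5 and 25.1. How reads shared by a gene and its copies were placed was not tested.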
